A study of Mus musculus with 4 samples.

Results

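Detoxification enzymes were described in mouse dorsal root ganglia, which house the cell bodies of sensory neurons outside the spinal cord. The set held every gene of the FPKM matrix whose symbol begins as a cytochrome P450 (Cyp), flavin monooxygenase (Fmo), glutathione transferase (Gst, Mgst), glutathione peroxidase (Gpx), UDP-glucuronosyltransferase (Ugt) or sulfotransferase (Sult), with Cyp51 and Cyp26b1 left out. It came to 64 of the 14405 genes in the matrix. The genes were chosen by symbol, but the matrix holds only genes selected on a measured value, since each row reached at least 1 FPKM in at least 1 sample, and the family was proposed with earlier results of these data known. The members nearest that limit were Gsta3, with a highest value of 1.05 FPKM, and Cyp11a1, with a highest value of 1.23 FPKM, and genes under the limit were not analysed here. The set held 21 genes of Cyp families 1 to 4, 6 other Cyp genes, 3 Fmo, 18 cytosolic Gst and Gst-like genes, 3 Mgst, 6 Gpx, 4 Ugt and 3 Sult genes.

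The 2 mutant samples (Mut) carried the genotype Prdm12-/Fl with AvilCreERT2/+, that is a null and a floxed allele of the transcription factor gene Prdm12 and a Cre recombinase that tamoxifen switches on, driven by the sensory neuron gene Avil. The 2 wild type samples (WT) were labelled wild type with no other allele. All 4 samples were ganglia of mice aged 10 weeks and of mixed strain. The labels give no tamoxifen schedule, no dosing of the wild types and no number of animals behind a sample. Since nothing states that the samples came from separate animals, a p-value here reflects only how far these samples spread, which may be technical. With 2 samples a group the smallest p an exact permutation test allows, two-sided, is 0.333, so single genes were judged from a fit across all genes. Because the Cre is driven in sensory neurons, values of the whole ganglion also hold the glia, fibroblasts, vessels and blood in which recombination was not directed.

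Detoxification is commonly described as a chain. Phase I enzymes, the cytochromes P450 and flavin monooxygenases, add or expose an oxygen on a lipophilic molecule. Phase II enzymes then attach glutathione, glucuronic acid or sulfate, and glutathione peroxidases use glutathione to reduce peroxides. In nerve tissue several of these enzymes also have other work, in steroid, eicosanoid and myelin lipid metabolism.

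Prdm12 was at 1.05 and 1.5 FPKM in Mut ganglia, against 7.58 and 10.7 FPKM in WT ganglia, in the direction of the labels. FPKM (read fragments scaled by transcript length and library size) hold no read counts, so the depth of the libraries is unknown and no counting interval can be given. The libraries differed in markers of other tissues. The 10 sensory neuron markers had a row each, with summed levels of 4960 and 6811 FPKM in Mut and 4625 and 5889 FPKM in WT. Skeletal muscle markers summed to 335 and 4992 FPKM in Mut 1 and Mut 2, and to 485 and 2518 FPKM in WT 1 and WT 2. Adipocyte markers summed to 290 and 2396 FPKM in Mut 1 and Mut 2, and to 497 and 792 FPKM in WT 1 and WT 2. All 7 erythrocyte markers with a row were higher in both Mut samples. Of 8 hepatocyte markers, 2 had a row, Apoa2 and Ttr, which summed to 4.28 and 7.97 FPKM in Mut and 9.39 and 5.77 FPKM in WT. In bulk ganglia, fewer cells of a type and less RNA per cell cannot be told apart.

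Upstream sequences are shown for 6 enzymes picked after their values were seen, to set letters beside the results that follow: Mgst2, Gpx2, Gstp1, Gstm2 and Cyp2b10, lower in both Mut samples, and Cyp4f18, higher in both. They are RefSeq sequences on GRCm38.p6, written from up to 250 bases before the start, with bases annotated as exon in GENCODE M21 taken off. The window of Mgst2 lies at chr3:51660929-51661177 on the plus strand, Gstp1 at chr19:4037986-4038162 on the minus strand, Gstm2 at chr3:107986454-107986670 on the minus strand, Gpx2 at chr12:76795555-76795804 on the minus strand, Cyp2b10 at chr7:25897408-25897619 on the plus strand and Cyp4f18 at chr8:72009627-72009876 on the minus strand. Capitals mark TGACNNNGC, the core of the antioxidant response element, and GCGTG, the core of the element bound by the dioxin receptor pair Ahr and Arnt, both read on either strand. The Ahr core of Gstp1 and 1 of the 2 of Cyp2b10 lie in bases that were taken off.
Mgst2: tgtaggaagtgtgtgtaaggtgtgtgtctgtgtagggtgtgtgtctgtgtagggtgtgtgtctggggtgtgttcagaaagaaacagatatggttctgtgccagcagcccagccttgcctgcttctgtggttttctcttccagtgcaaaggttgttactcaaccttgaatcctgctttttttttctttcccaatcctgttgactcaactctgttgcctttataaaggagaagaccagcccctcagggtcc
Gstp1: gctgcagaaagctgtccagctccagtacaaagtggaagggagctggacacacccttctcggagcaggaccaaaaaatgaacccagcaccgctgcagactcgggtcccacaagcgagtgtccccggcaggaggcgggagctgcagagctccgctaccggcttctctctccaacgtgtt
Gstm2: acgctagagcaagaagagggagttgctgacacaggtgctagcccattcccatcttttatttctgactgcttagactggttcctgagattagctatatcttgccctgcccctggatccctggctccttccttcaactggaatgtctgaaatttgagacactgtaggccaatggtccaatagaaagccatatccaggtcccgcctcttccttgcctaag
Gpx2: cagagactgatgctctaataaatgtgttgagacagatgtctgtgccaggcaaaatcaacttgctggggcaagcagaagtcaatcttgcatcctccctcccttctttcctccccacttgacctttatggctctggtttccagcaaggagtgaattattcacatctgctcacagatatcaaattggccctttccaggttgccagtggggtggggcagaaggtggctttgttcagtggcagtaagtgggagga
Cyp2b10: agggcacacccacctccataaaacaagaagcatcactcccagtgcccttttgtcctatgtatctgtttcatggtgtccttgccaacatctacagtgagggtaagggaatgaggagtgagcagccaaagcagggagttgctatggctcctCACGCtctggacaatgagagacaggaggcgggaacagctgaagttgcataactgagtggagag
Cyp4f18: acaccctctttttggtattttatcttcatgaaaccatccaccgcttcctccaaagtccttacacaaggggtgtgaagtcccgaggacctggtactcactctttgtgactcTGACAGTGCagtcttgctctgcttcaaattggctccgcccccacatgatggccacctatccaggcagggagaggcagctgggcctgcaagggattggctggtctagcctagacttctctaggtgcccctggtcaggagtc

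Of the 64 genes, 53 had a RefSeq promoter. Within 250 bases before a start, 6 of these 53 genes (11.3%) held the antioxidant core, as did 11.5% of all 27025 genes in the table. The Ahr core was found in 19 of 53 genes (35.8%), and in 30.9% of all genes. Among the 13 genes with a promoter that were lower in both Mut samples, 1 held the antioxidant core and 6 the Ahr core. Among the 7 that were higher in both, 2 held the antioxidant core and 4 the Ahr core. These matches describe letters in a window and are not sites.

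The enzymes as a whole had overlapping summed levels. The 64 genes summed to 3938 and 4176 FPKM in Mut ganglia, against 4003 and 4147 FPKM in WT ganglia. Gpx4 alone made up 28.7% of the mean sum, and Gpx4, Gpx1, Mgst3, Gstm5 and Sult4a1 together 60.5%. Of the 64 genes, 9 had a mean over 100 FPKM, 25 a mean of 10 to 100 FPKM and 30 a mean under 10 FPKM. By family, the glutathione peroxidases took 48.9% of the sum, the cytosolic transferases 20.3%, the microsomal transferases 11.1%, the sulfotransferases 8.48% and Cyp families 1 to 4 took 5.05%.

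A fit across all genes found no enzyme that passed. With limma, 0 of the 62 enzymes tested had an adjusted p under 0.05, where 0% of the 14040 genes tested did. The smallest limma adjusted p over all genes was 0.175, so Prdm12 did not pass either. The lack of calls therefore does not show that the enzymes were unchanged. Gsta3 and Cyp11a1 averaged under 1 FPKM in both groups and were not tested. At an unadjusted p under 0.05, 1 enzyme was higher in Mut, where 1.35% of all genes were, and 6 were lower, where 3.01% of all genes were. In 7 enzymes both Mut samples were above both WT samples (11.3% of those tested, against 12.5% of all genes). In 16 enzymes both were below (25.8%, against 19.6% of all genes). Median-ratio scaling gave 10 higher (16.1%, against 15.7% of all genes) and 12 lower (19.4%, against 15.9%). Quantile normalization gave 12 higher (19.4%, against 16.7% of all genes) and 12 lower (19.4%, against 15.4%). Under both scalings the shares of the enzymes were near those of all genes. The median log2 difference of the 62 enzymes was -0.01, and that of all genes was -0.00476. For 48 of the 62 enzymes the 95% interval lay wholly within -1 to 1. That count was not made over all genes, so nothing particular to the enzymes is drawn from it. All differences are on the log2(FPKM + 1) scale, Mut minus WT, which makes changes of low-FPKM genes look smaller.

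**Figure D1:**
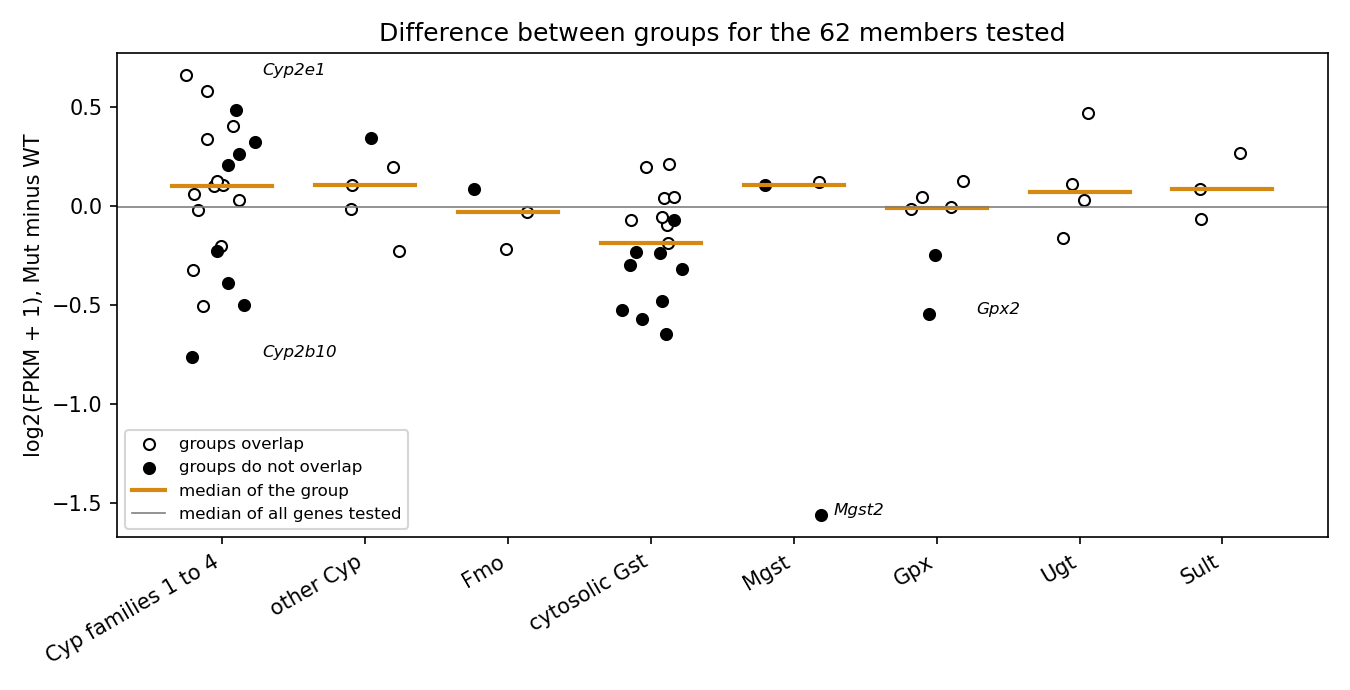
Difference between group means on the log2(FPKM + 1) scale, Mut minus WT, for each of the 62 enzymes tested (circles), by enzyme family. Filled circles mark genes whose Mut and WT samples do not overlap, orange bars family medians and the grey line the median of all genes tested. Mgst2 lies lowest at -1.56, and 9 of the 17 cytosolic Gst genes are filled and below 0 (52.9%, against 19.6% of all genes).

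Mgst2 was the enzyme that stood farthest apart. It encodes a microsomal glutathione transferase that can also join glutathione to leukotriene A to make an inflammatory leukotriene. It was at 3.03 and 3.73 FPKM in Mut ganglia, against 11 and 12.9 FPKM in WT ganglia. The Mut samples were both under 4 FPKM and the WT samples both over 10 FPKM, with no overlap. The means were 3.38 ± 0.500 FPKM in Mut and 11.9 ± 1.35 FPKM in WT (SD, n = 2 each), 3.53-fold lower in Mut. This was a log2 difference of -1.56 (SE 0.166, 95% interval -1.98 to -1.14). Adjusted over the whole matrix it missed the threshold (limma adjusted p = 0.219, the smallest in the set). With each sample left out in turn it ran from -1.68 to -1.45. Mgst2 (ENSMUSG00000074604.9) lies on chromosome 3 at 51660360 to 51682677 in GRCm38, and the RefSeq window shown above lies inside that span, outside annotated exons.

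The other microsomal transferases were far more abundant and close between the groups. Mgst3, a transferase and peroxidase of intracellular membranes, was at 326 and 334 FPKM in Mut, against 293 and 321 FPKM in WT. Both Mut samples were above both WT samples, with a log2 difference of 0.10 and an interval of -0.29 to 0.50. Mgst1, found in the endoplasmic reticulum and the outer mitochondrial membrane, was at 100.3 and 167 FPKM in Mut, against 115 and 123 FPKM in WT. The WT samples lay between the Mut samples, and Mut 2 was high.

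The cytosolic glutathione transferases held most of the lower values. Their summed level was 763 and 783 FPKM in Mut ganglia, against 851 and 911 FPKM in WT ganglia, without overlap. Of the 17 genes tested, 9 were lower in both Mut samples (52.9%, against 19.6% of all genes) and 0 were higher in both, with a median log2 difference of -0.19. After median-ratio scaling 7 were lower (41.2%, against 15.9% of all genes) and 2 higher, and after quantile normalization 7 were lower (41.2%, against 15.4%) and 2 higher. At an unadjusted p under 0.05, 2 of the 17 were lower (11.8%, against 3.01% of all genes). Without Mut 2, the library highest in fat and muscle markers, 13 of the 17 were lower in the remaining Mut sample than in both WT samples (76.5%, against 37.4% of all genes under the same comparison), and 2 were higher than both. Without Mut 1 10 were lower (58.8%, against 36.8%), without WT 1 12 (70.6%, against 36.4%) and without WT 2 10 (58.8%, against 32.5%). A gene whose groups do not overlap stays so when a sample is left out. These counts could therefore not fall below 9, and they do not test that count.

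Gstp1 was the most abundant gene of the set among those at an unadjusted p under 0.05. It encodes the pi class transferase, which conjugates electrophiles and also binds stress kinases. It was at 69.8 and 76.6 FPKM in Mut ganglia, against 107 and 111 FPKM in WT ganglia. The samples of a group were close and the groups were well apart, with a log2 difference of -0.57 (SE 0.151, interval -0.95 to -0.19; limma adjusted p = 0.790). Its neighbour Gstp2 was at 3.15 and 4.29 FPKM in Mut and 4.06 and 4.64 FPKM in WT, with overlap. The pair lies on chromosome 19 at 4035407 to 4046023. Of the 50-base windows of the Gstp1 transcript in GENCODE, 62.3% also occur in Gstp2, so reads of this pair can be shared and the split between them is uncertain. Of the 64 enzymes, 12 shared over 10% of such windows with another gene and 32 shared none.

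The 6 mu class genes with a row in the matrix lie together on chromosome 3, at 107895821 to 108044894. Of the 6, 4 were lower in both Mut samples and 0 higher in both, where 19.6% and 12.5% of all genes were. In chromosome order the 6 genes are Gstm5, Gstm7, Gstm6, Gstm2, Gstm1 and Gstm4. Gstm2 was at 84.1 and 56.0 FPKM in Mut, against 104 and 95.2 FPKM in WT. Both Mut samples were lower, Mut 2 by more, and the log2 difference was -0.53 with an interval of -1.11 to 0.05, or -0.24 without Mut 2. Gstm1 was at 91.5 and 83.4 FPKM in Mut, against 103 and 113 FPKM in WT, a log2 difference of -0.30 with an interval of -0.69 to 0.09. Gstm6, a low-expressed member, was at 3.50 and 3.86 FPKM in Mut, against 7.20 and 5.57 FPKM in WT, a log2 difference of -0.65 (limma adjusted p = 0.790). Gstm7 was at 13.3 and 11.2 FPKM in Mut, against 14.5 and 14.7 FPKM in WT.

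The outermost of these 6 genes did not separate the groups. Gstm5, the most abundant cytosolic transferase here, was at 196 and 219 FPKM in Mut, against 196 and 237 FPKM in WT. Gstm4 was at 9.32 and 9.30 FPKM in Mut, against 8.67 and 9.31 FPKM in WT. Their log2 differences were -0.06, with an interval of -0.50 to 0.39, and 0.05, with an interval of -0.30 to 0.39. Of the 50-base windows of each transcript, 23.1% of Gstm1, 11.5% of Gstm6 and 9.36% of Gstm2 also occur in transcripts of other genes.

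The theta class cluster on chromosome 10, at 75774115 to 75837424, held 3 genes. Of these, 2 were lower in both Mut samples, where 19.6% of all genes were. Gstt3 was at 12.6 and 7.26 FPKM in Mut, against 14.9 and 12.8 FPKM in WT, a log2 difference of -0.48 that ran from -0.84 without Mut 1 to -0.12 without Mut 2. Gstt2 was at 14.4 and 10.7 FPKM in Mut, against 16.4 and 15.1 FPKM in WT. Gstt1, between them on the chromosome, was at 78.5 and 59.8 FPKM in Mut and at 81.1 and 66.2 FPKM in WT, with overlap. In each of the 3 genes the lowest value was that of Mut 2. Of the 50-base windows of the Gstt3 transcript, 26.0% also occur in Gm20441, so part of its reads can be shared.

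**Figure D2:**
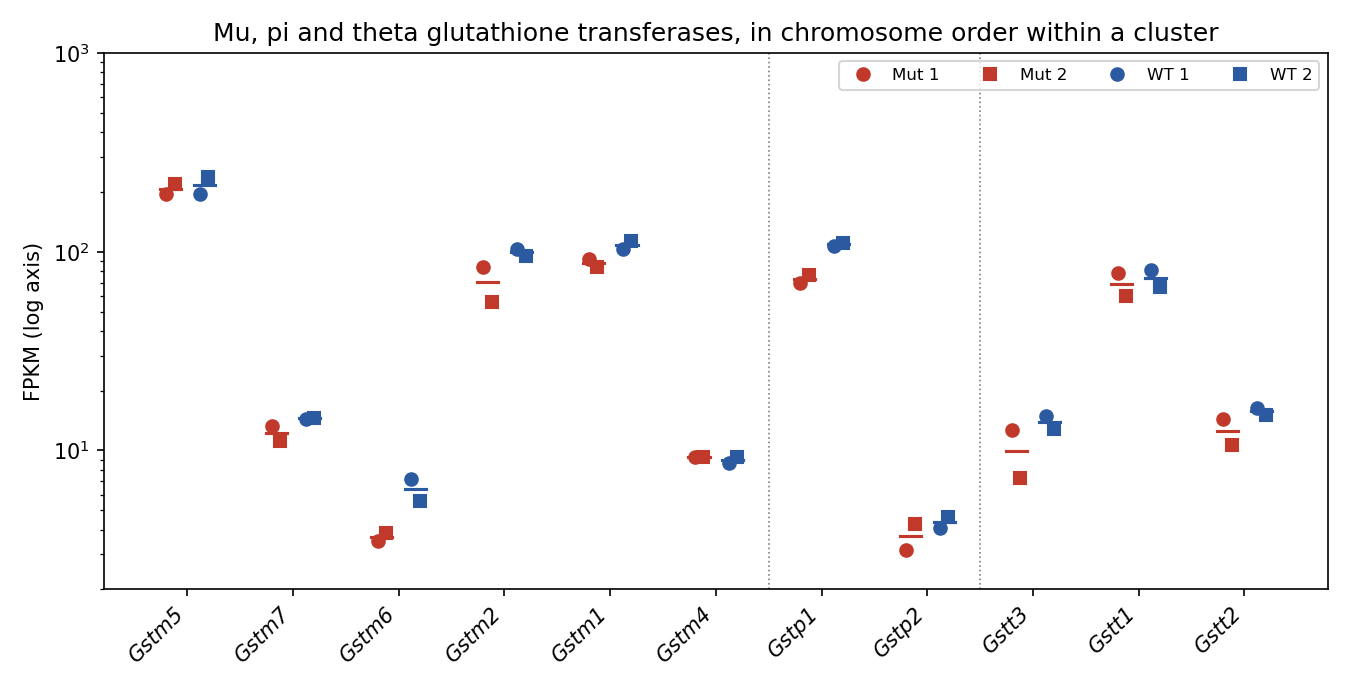
FPKM (log axis) of the mu, pi and theta glutathione transferases in each sample, in chromosome order within each cluster, with Mut in red left of WT in blue, circles for replicate 1, squares for replicate 2 and bars for the group means. Gstp1 separates the groups at 69.8 and 76.6 FPKM in Mut against 107 and 111 FPKM in WT, while Gstm5 and Gstm4 overlap.

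The remaining cytosolic genes differed little or overlapped. Gsta4, which conjugates the lipid aldehyde hydroxynonenal, was at 81.4 and 83.8 FPKM in Mut, against 85.8 and 87.8 FPKM in WT, lower in both Mut samples by a log2 difference of -0.07. Gstcd, a gene with a transferase-like domain, was at 1.58 and 1.73 FPKM in Mut, against 1.99 and 2.29 FPKM in WT. Gstk1 of mitochondria and peroxisomes, Gsto1 and Gsto2 of the omega class, and Gstz1, which also isomerises an intermediate of tyrosine breakdown, overlapped between the groups, with log2 differences of -0.07, 0.04, 0.21 and 0.19. With each sample left out in turn these ran from -0.23 to 0.087 for Gstk1 and from -0.23 to 0.31 for Gsto1. They ran from 0.061 to 0.36 for Gsto2 and from -0.23 to 0.62 for Gstz1. Gstk1 changed sign without WT 2 or without Mut 1, and Gsto1 and Gstz1 without WT 1 or without Mut 2.

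Markers of fibroblasts and meninges, the sheath tissue around the ganglion, were lower in Mut beside these genes. Of 14 such markers, 9 were lower in both Mut samples and 0 were higher in both, and their median log2 difference was -0.95. They summed to 9068 and 6135 FPKM in Mut, against 19236 and 17980 FPKM in WT, and none was at 0 in any sample. Of that sum Ptgds made up 3201 and 3025 FPKM in Mut and 13099 and 13055 FPKM in WT. Without Ptgds the summed levels of the other markers overlapped between the groups. The part of this tissue in the lower Gst and Mgst2 values was not tested. The 10 neuron markers had a median log2 difference of 0.19, with 1 higher in both Mut samples and 0 lower in both.

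**Figure D3:**
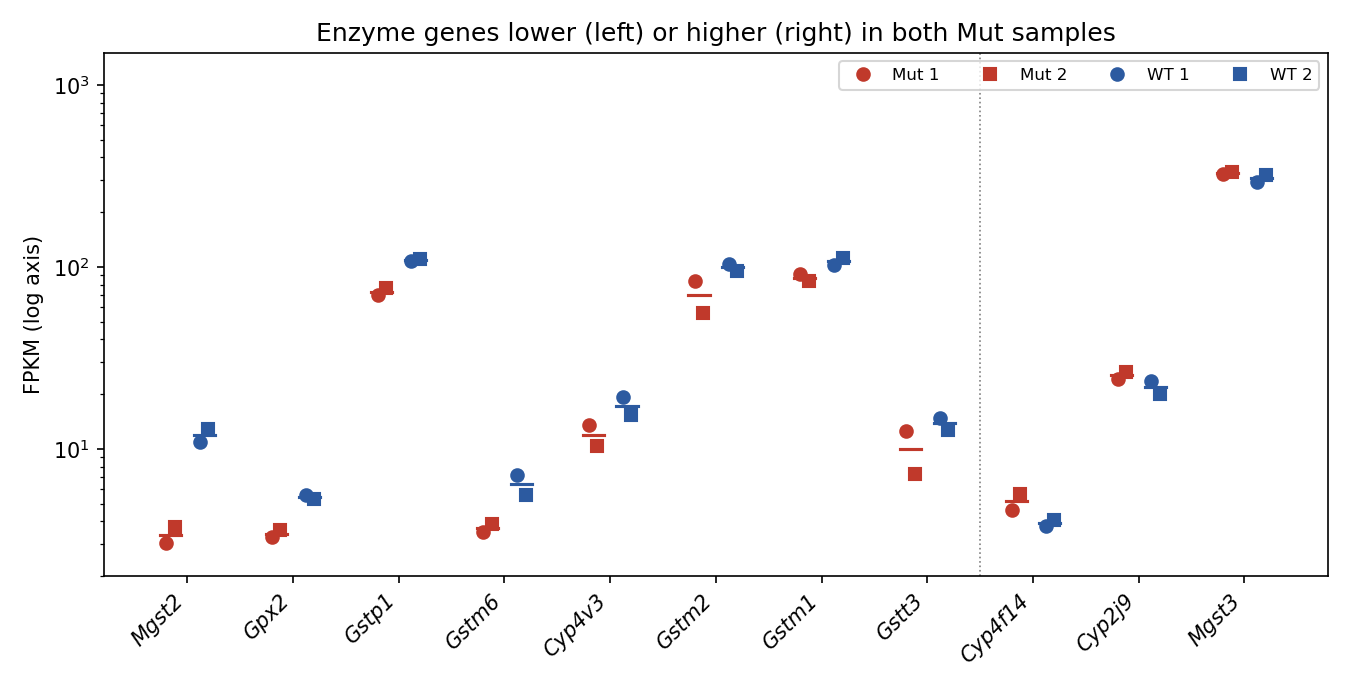
FPKM (log axis) in each sample for the 8 enzymes lowest and the 3 highest in Mut by moderated t, among those of at least 5 FPKM in either group whose groups do not overlap. Mut is red and left of WT in blue, circles are replicate 1, squares replicate 2, and bars the group means. Mgst2 has the widest gap, at 3.03 and 3.73 FPKM in Mut against 11 and 12.9 FPKM in WT.

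The glutathione peroxidases, the largest share of the set, were nearly equal. Gpx4, which reduces lipid hydroperoxides in membranes, was at 1151 and 1169 FPKM in Mut, against 1168 and 1183 FPKM in WT, a log2 difference of -0.02 with an interval of -0.41 to 0.37. Of its transcript's 50-base windows 61.7% also occur in transcripts of other genes such as the pseudogene Gpx4-ps2, so part of its reads can be shared. Gpx1, the cytosolic peroxidase, was at 591 and 527 FPKM in Mut and at 583 and 538 FPKM in WT, a log2 difference of -0.01. Gpx3, a secreted peroxidase, was at 103 and 160 FPKM in Mut and at 121 and 115 FPKM in WT, so that Mut 2 was high and Mut 1 low.

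Smaller peroxidases held the differences. Gpx2, first known from the gut epithelium, was at 3.27 and 3.58 FPKM in Mut, against 5.57 and 5.33 FPKM in WT. Its log2 difference was -0.55 (SE 0.144, interval -0.91 to -0.18; limma adjusted p = 0.790), and 18.9% of its transcript's 50-base windows also occur in the pseudogene Gpx2-ps1. Gpx8, a peroxidase of the endoplasmic reticulum, was at 96.5 and 89.7 FPKM in Mut, against 120 and 102 FPKM in WT. Gpx7, of the same compartment, overlapped between the groups (log2 difference 0.04).

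Cyp families 1 to 4, which oxidise drugs, fatty acids and eicosanoids, went in both directions. Of 21 genes, 4 were higher in both Mut samples (19.0%, against 12.5% of all genes) and 4 lower in both (19.0%, against 19.6%). The median log2 difference was 0.10. Cyp2e1, the ethanol-oxidising P450, had the largest difference upward and rested on 1 library. It was at 9.55 FPKM in Mut 1 and 102 FPKM in Mut 2, against 14.3 and 27.2 FPKM in WT. The WT samples lay between the Mut samples. The log2 difference was 0.66 with an interval of -1.95 to 3.27 (limma adjusted p = 0.994), and it was -0.98 without Mut 2 and 2.30 without Mut 1. In the authors' deposited table of 150 called genes (1.04% of the matrix rows), Cyp2e1 was the 1 enzyme of the set, with a log2 fold change of 1.42, a q-value of 0.00742 and group values of 55.6 FPKM in Mut and 20.8 FPKM in WT. That table places Cyp2e1 on chromosome 7 at 140763831 to 140774977 in mm10.

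The summed adipocyte markers and the summed skeletal muscle markers both followed the order of Cyp2e1 across the 4 samples, lowest in Mut 1, then WT 1 and WT 2, and highest in Mut 2. Adipoq, the adiponectin gene of fat cells, was at 10.9 and 94.2 FPKM in Mut 1 and Mut 2, and at 16 and 27.2 FPKM in WT 1 and WT 2. None of the 10 adipocyte or 12 muscle markers was at 0 in any sample. Of the 9 adipocyte markers tested 0 separated the groups, and of the 12 muscle markers 1 was lower in both Mut samples. Their part in the value of Cyp2e1 was not tested.

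Apart from Cyp2b10, described below, the other Cyp genes of these families had smaller log2 differences. Cyp1b1, a P450 that hydroxylates oestradiol and retinoids, was at 26.8 and 16.4 FPKM in Mut, against 27.3 and 28.4 FPKM in WT, with Mut 1 close to the WT samples. Cyp4v3, a fatty acid hydroxylase, was at 13.5 and 10.4 FPKM in Mut, against 19.3 and 15.4 FPKM in WT, a log2 difference of -0.50 with an interval of -0.99 to -0.01. Cyp2j9 and Cyp4f14 were higher in both Mut samples. Cyp2j9, of the arachidonic acid oxidising subfamily, was at 24.2 and 26.5 FPKM in Mut, against 23.7 and 20.1 FPKM in WT. Cyp4f14 was at 4.63 and 5.67 FPKM in Mut, against 3.75 and 4.05 FPKM in WT, a log2 difference of 0.32 with an interval of -0.08 to 0.72. Cyp4f15 was at 1.41 and 1.60 FPKM in Mut, against 0.886 and 1.31 FPKM in WT, and Cyp2u1 at 1.37 and 1.15 FPKM in Mut, against 1.77 and 1.54 FPKM in WT. The remaining 13 genes of these families overlapped between the groups. Among them Cyp2j6 had a log2 difference of 0.06, Cyp2d22 was at 28.9 and 15.0 FPKM in Mut and at 16.7 and 22.5 FPKM in WT, and Cyp2f2 was at 1.77 and 7.04 FPKM in Mut and at 1.57 and 2.89 FPKM in WT.

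Cyp2b10 and Cyp4f18, both below 5 FPKM, were picked out after their values were seen. Cyp2b10, known in liver as the P450 induced by phenobarbital, was at 1.57 and 2.34 FPKM in Mut, against 4.07 and 3.87 FPKM in WT. The log2 difference was -0.76 with an interval of -1.24 to -0.29 (limma adjusted p = 0.737). Cyp4f18, which inactivates leukotriene B in neutrophils, was at 4.84 and 3.99 FPKM in Mut, against 2.71 and 3.0 FPKM in WT. It was the 1 enzyme higher in Mut at an unadjusted p under 0.05, with a log2 difference of 0.49 and an interval of 0.08 to 0.89. The 6 Cyp4f genes at 32452723 to 32947402 on chromosome 17 included 2 that were higher in both Mut samples and 0 lower in both. The shares of all genes were 12.5% and 19.6%.

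Of the 5 other Cyp genes tested, mostly of sterol metabolism, 1 was higher in both Mut samples and 0 were lower in both. The shares of all genes were 12.5% and 19.6%. Cyp27a1, the sterol hydroxylase of mitochondria, was at 29.4 and 22.3 FPKM in Mut and at 26.3 and 34.6 FPKM in WT, with overlap. Cyp39a1 and Cyp7b1, both oxysterol hydroxylases, had log2 differences of 0.10 and 0.20, also with overlap. Cyp46a1, which turns cholesterol into an oxysterol in neurons, was at 4.56 and 4.6 FPKM in Mut, against 3.20 and 3.63 FPKM in WT, higher in both Mut samples by a log2 difference of 0.34 with an interval of -0.03 to 0.71. Cyp20a1, an orphan P450, had a log2 difference of -0.02.

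Of the flavin monooxygenases, Fmo1 was the most abundant and flat. This nitrogen- and sulfur-oxidising enzyme was at 76.6 and 65.1 FPKM in Mut and at 72.9 and 71.3 FPKM in WT, a log2 difference of -0.03 with an interval of -0.43 to 0.37. Its neighbour Fmo2, best known from lung, was at 24.5 and 11.1 FPKM in Mut and at 15.1 and 24.9 FPKM in WT, so that its samples of 1 genotype were farther apart than the genotypes. Fmo5 was at 3.35 and 3.04 FPKM in Mut, against 2.99 and 2.92 FPKM in WT.

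The Ugt and Sult genes overlapped between the groups without exception, where 12.5% of all genes were higher and 19.6% lower in both Mut samples. Ugt8a, which makes the myelin lipid galactocerebroside, was at 68.0 and 111 FPKM in Mut and at 76.1 and 51.4 FPKM in WT, a log2 difference of 0.47 with an interval of -0.30 to 1.24. The 10 Schwann cell and myelin markers summed to 10115 and 21042 FPKM in Mut and to 10249 and 8092 FPKM in WT, with 7 of the 10 higher in both Mut samples, so that Mut 2 was highest in both measures. None of these markers was at 0 in any sample, and their part in the Ugt8a values was not tested. Without Mut 2 the log2 difference of Ugt8a was 0.12. Ugt1a6a and Ugt1a6b, phenol glucuronosyltransferases, had log2 differences of 0.03 and 0.11, but 100% and 80.7% of their transcripts' 50-base windows occur in another gene of that locus, so their single values are uncertain. Ugt1a7c, of the same locus, was at 1.83 and 0.999 FPKM in Mut and at 1.40 and 1.96 FPKM in WT.

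Sult4a1, a brain and nerve sulfotransferase-like gene with no settled substrate, was at 189 and 254 FPKM in Mut and at 163 and 203 FPKM in WT. In each genotype replicate 2 was higher, and the log2 difference was 0.27 with an interval of -0.28 to 0.82. It was 0.056 without Mut 2 and 0.48 without Mut 1. Sult1a1, the phenol sulfotransferase, was at 127 and 121 FPKM in Mut and at 108 and 155 FPKM in WT, a log2 difference of -0.07. Sult5a1 had a log2 difference of 0.09.

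For many of the enzymes the 2 samples of a genotype differed by more than the group means. The 2 Mut samples were farther apart than the group means for 35 of 62 enzymes, and the 2 WT samples for 35 of 62. The median absolute difference was 0.23 between the Mut samples, 0.22 between the WT samples and 0.20 between the group means, in log2 units. A mean of 2 samples varies less than a single sample, so these counts and medians do not show an unusual spread within a genotype. The same counts were not made over all genes. Mut 2 was over 1.5-fold higher than Mut 1 in 9 of the 62 (14.5%, against 9.54% of all genes) and over 1.5-fold lower in 8 (12.9%, against 7.65%). WT 2 was over 1.5-fold higher than WT 1 in 7 (11.3%, against 7.94%) and over 1.5-fold lower in 1 (1.61%, against 3.13%). Cyp2e1, Cyp2f2, Cyp4f39 and Cyp4x1 were on the higher list in both genotypes, and Cyp2s1 on the lower list in both.

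**Figure D4:**
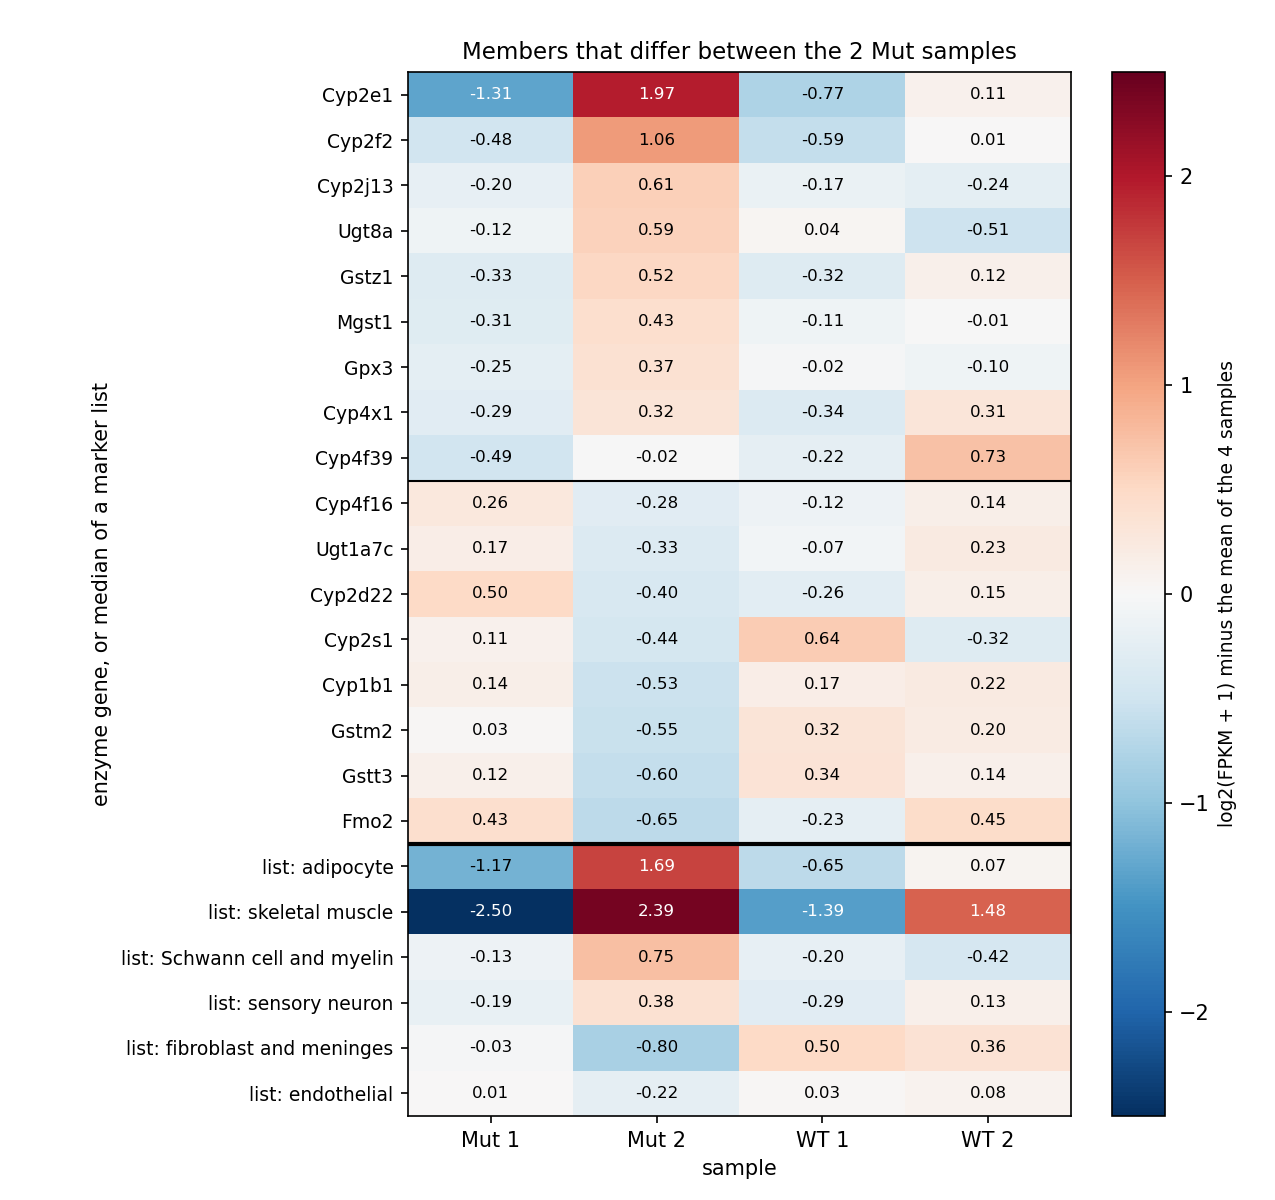
Deviation of each sample from the mean of the 4 samples on the log2(FPKM + 1) scale, for the 9 enzymes over 1.5-fold higher (top) and the 8 over 1.5-fold lower (middle) in Mut 2 than in Mut 1, and the median deviation of 6 marker lists (bottom). Cyp2e1 deviates by 1.97 in Mut 2 and by -1.31 in Mut 1, beside adipocyte medians of 1.69 and -1.17. Fmo2 deviates by -0.65 in Mut 2 and by 0.43 in Mut 1, beside fibroblast and meninges medians of -0.80 and -0.03. In WT 1 and WT 2 Fmo2 is at -0.23 and 0.45 and that list at 0.50 and 0.36, so their orders across the samples differ.

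Genes that work beside these enzymes were followed in a list of 98, of which 92 had a row and were tested. With limma 0 of the 92 passed an adjusted p of 0.05, and at an unadjusted p under 0.05 there were 0 higher and 9 lower in Mut, where 1.35% and 3.01% of all genes were. Without overlap, 2 were higher and 26 lower, where 12.5% and 19.6% of all genes were. After median-ratio scaling 6 were higher and 21 lower, where 15.7% and 15.9% of all genes were. The median log2 difference was -0.01, as in the enzymes. Of 12 regulators with a row, 0 were higher in both Mut samples and 2 lower in both. Nfe2l2, which encodes the factor NRF2 that acts on antioxidant response elements, was at 40.3 and 34.2 FPKM in Mut, against 47.8 and 43.7 FPKM in WT (log2 difference -0.29). Arnt was at 10.2 and 8.67 FPKM in Mut, against 11.4 and 10.4 FPKM in WT. Ahr and Keap1 overlapped between the groups. Of 20 genes of cofactor supply 1 was higher and 4 were lower in both Mut samples, of 32 other phase I and II enzymes 0 and 14, of 18 antioxidant enzymes 1 and 1, and of 10 export pumps 0 and 5.

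The partner genes with the widest gaps were aldehyde dehydrogenases and a pump. Aldh1a2, which makes retinoic acid and was also on the meninges list, was at 27.5 and 18.8 FPKM in Mut, against 99.5 and 75.7 FPKM in WT, a log2 difference of -1.89 (limma adjusted p = 0.247). Aldh1a1 was at 51.7 and 50.8 FPKM in Mut, against 113 and 117 FPKM in WT (log2 difference -1.15, limma adjusted p = 0.247). Abcb1a, the drug efflux pump of the blood-nerve and blood-brain barriers, was at 9.93 and 6.62 FPKM in Mut, against 23.4 and 18.5 FPKM in WT (log2 difference -1.26, limma adjusted p = 0.481). Adh7 was at 4.37 and 2.61 FPKM in Mut, against 7.27 and 5.66 FPKM in WT. Cdh5, an endothelial marker picked after its value was seen, was at 21.1 and 13.6 FPKM in Mut, against 27.5 and 26.9 FPKM in WT. It was the 1 of 8 endothelial markers that was lower in both Mut samples. The 8 markers summed to 187 and 189 FPKM in Mut and to 197 and 199 FPKM in WT. Their median log2 difference was -0.08, with 3 above 0 and 5 below 0. None of the 8 was at 0, and their part in the Abcb1a values was not tested.

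On the higher side the partners were few. Ggt7, of the gamma-glutamyltransferase family, was at 18.8 and 27.2 FPKM in Mut, against 16.3 and 17.7 FPKM in WT (log2 difference 0.40). Glrx, the glutaredoxin that reduces glutathione-bound proteins, was at 61.6 and 60.4 FPKM in Mut, against 53.3 and 47.6 FPKM in WT (log2 difference 0.27). Por, the reductase that passes electrons to microsomal P450s, was at 45.8 and 40.3 FPKM in Mut, against 47.3 and 50.3 FPKM in WT, lower in both Mut samples. The enzymes of glutathione synthesis, Gclc, Gclm and Gss, overlapped between the groups, with log2 differences of -0.05, 0.06 and 0.14.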

How the data were processed

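RNA of whole dorsal root ganglia was sequenced in 2 Mut and 2 WT samples. Per the submitters' processing notes the tools were CASAVA, TopHat2 2.1.2 and Cufflinks 2.2.1, with mm10. The authors deposited a matrix of FPKM per gene and sample, and a table of called genes with FPKM, a log2 fold change, a test statistic (score), a p-value and a q-value. The sources used here give neither strandedness nor depth.

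limma 3.58.1 in R 4.3.3 was fitted on log2(FPKM + 1) with a variance trend, for 14040 genes with a group mean of at least 1 FPKM, with Benjamini-Hochberg adjustment over all of them. The 95% intervals are limma's. Positions are from GENCODE M21.

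Members and lists were chosen with earlier results of these data known. Enzymes were named if they had no overlap, at least 5 FPKM in either group and 1 of the 8 largest moderated t in a direction, if among the 3 most abundant of their family, or if in the authors' list. Partners were named likewise, up to 4 a direction. Other named genes were picked after their values were seen. Alternatives were another pseudocount, filters, scalings, no trend, a replicate block and each sample left out.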

Additional observations from a re-analysis of the deposited data

How the results depend on the processing

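No enzyme passed an adjusted p of 0.05 in limma under the other pseudocount, filters, scalings or the fit without a trend. Since 0% of all genes passed under these settings too, that count does not set the enzymes apart. Leaving out each sample gave 0 to 6 enzymes higher and 3 to 10 lower at an unadjusted p under 0.05, 13 to 20 higher (20.97% to 32.3%, against 22.3% to 40.1% of all genes) and 21 to 29 lower without overlap (33.9% to 46.8%, against 32.5% to 37.4% of all genes), since fewer samples make overlap rarer, and a median log2 difference of -0.082 to 0.055. The share of all genes at an unadjusted p was not counted in these fits, which leave 1 sample in a group. The counts of enzymes at an unadjusted p therefore cannot be judged, and nothing is drawn from them. With each sample left out, 10 to 13 of 17 cytosolic Gst genes were lower without overlap, counted after the data were seen. These were 58.8% to 76.5%, against 32.5% to 37.4% of all genes. A gene whose groups do not overlap stays so when a sample is left out. Counts without overlap could therefore not fall below those of all samples, and they do not test them. A minimum of 5 FPKM, which tests fewer genes, left 0 higher at an unadjusted p and 3 higher without overlap, and quantile normalization gave 2 and 12, the cause of which was not tested.

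Replicate numbers in the titles are not stated to pair the samples. Replicate 2 minus replicate 1 correlated at 0.481 between Mut and WT over genes, which are not independent. With the number as a replicate block, 1 enzyme passed, Mgst2 (limma adjusted p = 0.0289), among 61 of 14040 genes (0.434%). Prdm12 (0.0250), Aldh1a2 (0.0250), Aldh1a1 (0.0319) and Abcb1a (0.0346) passed in that fit too.

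Of 39 single genes followed, 26 kept their sign under the alternatives run. These 39 include genes named because their groups do not overlap, and leaving out a sample cannot change the sign of such a gene. For those genes only the other alternatives could have changed it. Gpx1 was at 0.0096 under median-ratio scaling. With each sample left out, log2 differences ran from -0.10 to 0.074 for Cyp20a1, -0.98 to 2.30 for Cyp2e1, -0.038 to 0.15 for Cyp2j6, -0.15 to 0.086 for Fmo1, -0.76 to 0.32 for Fmo2, -0.089 to 0.078 for Gpx1, -0.19 to 0.44 for Gpx3, -0.19 to 0.081 for Gstm5, -0.25 to 0.49 for Mgst1, -0.33 to 0.19 for Sult1a1, -0.14 to 0.32 for Sult5a1, -0.20 to 0.25 for Ugt1a6a and -0.037 to 0.25 for Ugt1a6b.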
